A study of Mus musculus with 6 samples.

Results

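The 41 genes described here encode the proteins that sense and relieve protein misfolding: 29 genes of the unfolded protein response and of folding in the endoplasmic reticulum (ER), and 12 genes of the heat shock response. They were chosen by symbol from a list of known members of these pathways, matched to Ensembl identifiers, and read from a matrix of 21666 genes. The choice was made with earlier results of these data known, and Wfs1 was named as a strong fall. Every member was in the matrix and passed the filter on low counts, as did 15518 genes in all. The data are RNA-seq counts from satellite cells, the resident stem cells of skeletal muscle, taken from mice and differentiated for 2 days. They come from 3 libraries of lncMREF knockout (KO) mice and 3 libraries of wild-type (WT) mice. The series title links the long noncoding RNA lncMREF to muscle differentiation and to Smarca5 and p300. The labels give no age, sex or strain, no account of how the knockout was made, and no treatment other than differentiation. They do not say whether the libraries of a genotype came from separate animals, and the p-values given here reflect the scatter of these libraries alone, part or all of which may be technical.

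Proteins that enter the ER are folded by chaperones such as BiP, the product of Hspa5, and their disulfide bonds are set by isomerases. When unfolded proteins build up, the sensors IRE1 (Ern1), PERK (Eif2ak3) and ATF6 start the unfolded protein response: IRE1 splices the Xbp1 message, ATF6 is cut to a transcription factor, and PERK phosphorylates the initiation factor eIF2, which slows translation while favouring translation of Atf4. ATF4 also serves other eIF2 kinases, and this shared branch is called the integrated stress response. In the cytosol, HSF1 drives the heat shock genes, and developing muscle relies on several of their products to fold and assemble myofibril proteins.

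Library totals ran from 17919826 to 23646805 counts in KO and from 20193337 to 28430678 in WT. Levels are given as CPM, counts scaled to the TMM-adjusted size of each library. The muscle markers Myod1, Myog, Des and Myh3 were detected in both genotypes, as the labelled cell type implies. The summed level of 10 myogenic markers was 3753 to 4024 CPM in KO and 17355 to 18095 CPM in WT, with 8 lower and 1 higher. All 8 markers of dividing cells were higher in KO (469.5 to 517 CPM summed, against 105 to 109 CPM in WT). Of 8 macrophage and leukocyte markers 7 were higher (309 to 319 CPM in KO, 96.7 to 105 in WT), of 7 Schwann and glial markers 6 (797 to 806 CPM in KO, 215 to 225 in WT), and all 8 endothelial markers were lower (77.9 to 83.1 CPM in KO, 312 to 318 in WT). Fibroblast markers (3 lower and 2 higher of 6 tested) summed to 7499.9 to 8039 CPM in KO and 6936 to 7083 in WT, and smooth muscle and pericyte markers (4 lower and 1 higher of 7) to 3068 to 3157 CPM in KO and 3510.4 to 3653 in WT. The fibroblast sum is nearly all Col1a1, with means of 7544 CPM in KO and 6685 CPM in WT. Lyz2, Ngfr, Cdh5 and Acta2 were the largest parts of the macrophage, Schwann, endothelial and smooth muscle sums. Beside these marker counts, 33.0% of all genes tested were called lower and 33.7% higher. The X-linked RNA Xist stood at 417 to 478 CPM in KO and 152 to 155 CPM in WT. The Y-linked Ddx3y (33.9 to 37.5 CPM in KO, 57 to 66.1 in WT), Eif2s3y (18.3 to 23.1 in KO, 26.3 to 28.8 in WT) and Uty (12.6 to 16.4 in KO, 20 to 22.2 in WT) were lower in KO. The Y-linked Kdm5d went in the opposite direction, at 16 to 17.1 CPM in KO and 14.7 to 14.9 CPM in WT. Mitochondrial DNA genes took 2.07 to 2.3% of counts in KO and 3.97 to 4.18% in WT. These differences run along the genotypes in every library, and their part in the results that follow was not tested. In such bulk RNA, fewer cells of a type and less RNA per cell cannot be told apart.

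Many of these genes are known to be switched on through short promoter elements, and the sites present in the members' promoters are shown here because the groups they define are compared later. RefSeq promoter windows (GRCm38.p6, 250 bases before to 50 bases after the start) were available for 34 of the 41 members. They were searched on both strands for the ER stress response element ERSE (CCAAT and CCACG with any 9 bases between them) and its variant ERSE-II (ATTGG and CCACG with any base between them), the ATF6 and XBP1 element UPRE (TGACGTGG), the C/EBP-ATF response element CARE (TGATGNAA) and the heat shock element HSE (GAA, TTC and GAA in that order, with any 2 bases between them). ERSE, ERSE-II and, on its opposite strand, UPRE all hold CCACG, so their matches can overlap. ERSE was in the windows of 7 members and of 0.137% of all 27025 genes with a window, and ERSE-II in those of 2 members and 0.0444% of all genes. CARE was in 4 members and 4.51% of all genes, HSE in 3 members and 0.662%, and UPRE in 0 members and 0.714%. A match is a run of letters, not a site shown to be bound, and no match says only that these letters are not in the window.

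The ERSE and ERSE-II matches, of which Hsp90b1 held a pair, are written 5′ to 3′ along the motif on the strand that holds it (GRCm38.p6), with the fixed letters in capitals and the free letters in lower case.
Hspa5, ERSE, chr2:34772025-34772043, plus strand: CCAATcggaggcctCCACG
Hsp90b1, ERSE, chr10:86705638-86705656, minus strand: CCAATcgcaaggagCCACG
Hsp90b1, ERSE, chr10:86705533-86705551, plus strand: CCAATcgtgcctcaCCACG
Canx, ERSE, chr11:50325800-50325818, minus strand: CCAATcaccacgctCCACG
Creld2, ERSE, chr15:88819520-88819538, minus strand: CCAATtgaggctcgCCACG
Dnajc3, ERSE, chr14:118937827-118937845, plus strand: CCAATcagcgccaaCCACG
Pdia6, ERSE, chr12:17266491-17266509, plus strand: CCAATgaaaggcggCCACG
Syvn1, ERSE, chr19:6046532-6046550, plus strand: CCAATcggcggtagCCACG
Dnajb11, ERSE-II, chr16:22857852-22857862, plus strand: ATTGGcCCACG
Herpud1, ERSE-II, chr8:94386377-94386387, plus strand: ATTGGgCCACG

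The CARE and HSE matches follow in the same form. Hspd1 and Hspe1 are transcribed away from each other, and their windows hold the same stretch of DNA, with 2 HSE matches that overlap on opposite strands.
Asns, CARE, chr6:7693225-7693232, minus strand: TGATGaAA
Chac1, CARE, chr2:119351049-119351056, minus strand: TGATGcAA
Trib3, CARE, chr2:152344039-152344046, plus strand: TGATGtAA
Herpud1, CARE, chr8:94386317-94386324, minus strand: TGATGcAA
Hspd1 and Hspe1, HSE, chr1:55088064-55088076, plus strand: GAAccTTCcgGAA
Hspd1 and Hspe1, HSE, chr1:55088059-55088071, minus strand: GAAggTTCtaGAA
Hsph1, HSE, chr5:149636288-149636300, plus strand: GAActTTCcaGAA

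The 250 bases before the RefSeq start are shown for a few members: Hspa5 as an ERSE promoter, Chac1 as a CARE promoter, Herpud1 because it held both ERSE-II and CARE, and Wfs1 because it had the largest change and held none of these motifs. The gene's own strand is written, so a match on the opposite strand reads as its reverse complement, and capitals mark the fixed letters of the matches (GRCm38.p6).
Hspa5, chr2:34771840-34772089, plus strand: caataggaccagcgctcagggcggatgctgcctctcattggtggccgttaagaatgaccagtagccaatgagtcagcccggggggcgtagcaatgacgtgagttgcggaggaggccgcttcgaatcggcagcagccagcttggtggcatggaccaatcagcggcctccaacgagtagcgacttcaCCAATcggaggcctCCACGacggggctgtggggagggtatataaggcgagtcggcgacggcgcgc
Chac1, chr2:119350992-119351241, plus strand: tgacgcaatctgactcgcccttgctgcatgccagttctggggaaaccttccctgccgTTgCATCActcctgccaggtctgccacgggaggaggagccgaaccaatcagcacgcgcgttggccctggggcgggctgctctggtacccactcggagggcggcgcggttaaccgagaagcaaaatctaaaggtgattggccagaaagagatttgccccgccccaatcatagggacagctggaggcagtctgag
Herpud1, chr8:94386179-94386428, plus strand: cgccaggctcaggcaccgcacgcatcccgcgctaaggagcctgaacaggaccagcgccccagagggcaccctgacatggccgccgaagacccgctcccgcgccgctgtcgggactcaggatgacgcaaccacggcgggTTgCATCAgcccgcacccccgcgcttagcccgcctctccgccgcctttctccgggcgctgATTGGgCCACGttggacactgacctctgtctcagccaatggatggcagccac
Wfs1, chr5:36988983-36989232, minus strand: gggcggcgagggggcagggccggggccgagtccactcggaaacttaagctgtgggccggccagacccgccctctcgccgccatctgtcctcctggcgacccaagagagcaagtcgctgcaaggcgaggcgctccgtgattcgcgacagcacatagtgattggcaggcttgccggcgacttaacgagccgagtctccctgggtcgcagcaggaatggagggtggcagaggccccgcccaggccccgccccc

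The genotypes differed across most of these genes, in both directions. Of the 41 members, 25 were lower in KO, 12 were higher and 4 were not called at an adjusted p under 0.05 (edgeR's quasi-likelihood test, Benjamini-Hochberg adjustment over all genes). That is 90.2% of members called, against 66.7% of all genes tested (33.0% lower and 33.7% higher), and against 73.3% of the 10681 genes with a mean level at or above that of the lowest member. Because the members, Wfs1 among them, were chosen with earlier results known, the shares in this paragraph describe them and test nothing. With so many genes called, the sizes say more than the count. Called changes of over 1.5-fold were found in 6 members that were lower (background 16.1%) and 7 that were higher (background 15.9%). The share of members with changes of this size was close to the 32.0% of all genes. Of the 10681 genes at or above the lowest member's mean, 1574 were lower and 1123 higher by this measure. That is a smaller share than over all genes, and the members' share lay above it. The median log2 fold change was -0.19 over the members and 0.021 over all genes. KO and WT libraries did not overlap in 38 of the 41 members, a larger share than the 69.4% of all genes. Among the 10681 genes at or above the lowest member's mean, 8075 did not overlap.

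The scaling between libraries sets the zero of these changes. With library size alone, the median of all genes was 0.19 in place of 0.021, and 15 members were lower and 14 higher. The median of the members then stood at -0.024. A change of scaling shifts every gene by nearly the same amount. The distance between the members' median and that of all genes, -0.22 under either scaling, therefore could not change and tests nothing.

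Another deposited form of the counts, a table for each library, differed from the matrix for most members. Its mean count lay within 0.8 to 1.25 times that of the matrix for 2 of the 41: Asns, with 2934 counts in the tables and 2781 in the matrix, and Dnaja1, with 5104 counts in the tables and 4787 in the matrix. In the tables Asns was higher in KO (log2 fold change 0.98, adjusted p 2.31e-16) and Dnaja1 lower (-0.27, adjusted p 0.000198), beside 0.97 and -0.29 in the matrix. For the other members the tables held fewer counts, as for Wfs1 with a mean of 13.8 in the tables and 10441 in the matrix. Trib3, Ddit3, Xbp1 and Hsp90ab1 had 0 counts there. Of 18 members with enough counts for a value in the tables, 12 had the opposite sign to the matrix. Those called in the opposite direction were Ern1 (-2.60), Ppp1r15a (-3.06) and Edem1 (-0.20), lower in KO in the tables, and Canx (0.79), Hyou1 (0.49), Hsp90aa1 (0.47), Creld2 (0.37) and Atf6 (0.25), higher in KO in the tables. Chac1, P4hb, Herpud1 and Hsf1 were opposite in sign without a call. Every value in the following paragraphs is from the matrix, and why the forms differ was not tested.

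**Figure D1:**
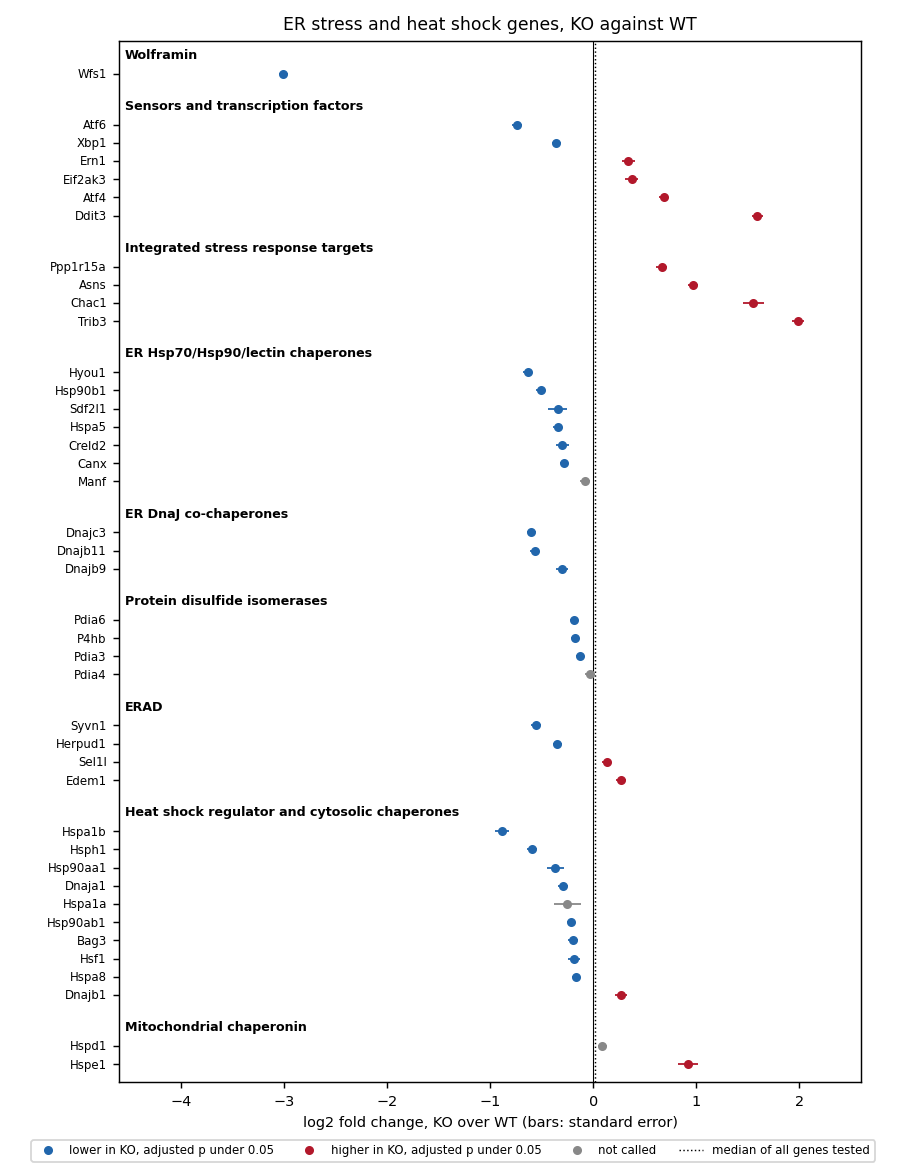
Log2 fold change of KO over WT for each of the 41 genes, grouped by role, with standard errors as bars; blue points are lower, red points higher and grey points not called, and the dotted line is the median of all genes tested. Wfs1 lies alone at -3.01, the integrated stress response targets lie to the right, and the ER chaperones to the left of 0.

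Wfs1 encodes wolframin, a membrane protein of the ER that takes part in ER calcium balance and is mutated in Wolfram syndrome. It was named among the members as a strong fall, so its values are a description. Wfs1 (chr5:36966104-36989205, mm10, minus strand) had 103, 101 and 102 CPM in KO libraries, against 838, 826 and 798 CPM in WT libraries. The groups lay far apart, and each varied little within itself. The means, 102 ± 1.21 CPM in KO and 821 ± 20.8 CPM in WT (SD, n = 3 each), gave an 8.04-fold lower level in KO (log2 fold change -3.01, SE 0.044). Ordered from the most negative log2 fold change, Wfs1 stood at place 105 of 15518 tested genes. Over 14 alternative settings on the matrix, the log2 fold change of Wfs1 ran from -3.04 to -2.84. No exonic base of Wfs1 is shared with another annotated gene. Per kilobase of exon its level was 26.9 CPM in KO and 217 CPM in WT, below Hspa5 on this scale in both genotypes (243 CPM in KO and 309 CPM in WT).

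The 3 sensors did not move together. Ern1, which encodes IRE1, had 48.6, 41.3 and 43.7 CPM in KO libraries, against 35.5, 35.1 and 34.8 CPM in WT libraries. Eif2ak3, which encodes PERK, had 45.6, 41.3 and 41 CPM in KO libraries, against 32.6, 35.7 and 30.8 CPM in WT libraries. Both were modestly higher in KO, with no overlap between genotypes (log2 fold change 0.34, SE 0.064, adjusted p 1.85e-05 for Ern1; 0.37, SE 0.066, adjusted p 7.52e-06 for Eif2ak3, which shares 8.05% of its exonic bases with an antisense gene). The membrane-bound factor Atf6 had 103, 103 and 103 CPM in KO libraries, against 171, 180.1 and 165 CPM in WT libraries. Every KO library was below every WT library, a 1.67-fold lower level in KO (log2 fold change -0.74, SE 0.045, adjusted p 1.31e-16). The ratio of Eif2ak3 to Atf6 was 0.414 ± 0.0249 in KO and 0.192 ± 0.0061 in WT (SD, n = 3 each). An exact permutation test gave a 2-sided p of 0.1, the smallest that 3 against 3 libraries allow. With Eif2ak3 higher and Atf6 lower in every KO library, the ratio had to separate the genotypes, so this p adds nothing to the single genes. Neither this ratio nor that of Hspe1 to Hspd1, given later, was planned.

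The transcription factors also differed in direction. Xbp1, whose message IRE1 splices, had 127, 125 and 131 CPM in KO libraries, against 168, 159 and 164 CPM in WT libraries, and was lower in KO (log2 fold change -0.36, SE 0.044, adjusted p 6.58e-09). Gene counts do not separate the spliced from the unspliced form. Atf4 (chr15:80255184-80257541) had 436, 459.8 and 447 CPM in KO libraries, against 289, 264 and 283 CPM in WT libraries, a 1.6-fold level in KO relative to WT (log2 fold change 0.68, SE 0.043, adjusted p 3.48e-16). ATF4 is controlled mainly through translation, which RNA counts do not measure. Ddit3 (chr10:127290774-127296288), which encodes the stress factor CHOP, had 123, 139 and 123 CPM in KO libraries, against 44.3, 40.9 and 42.7 CPM in WT libraries. Its KO libraries were all at least at 123 CPM and its WT libraries at most at 44.3 CPM, a 3.01-fold rise in KO (log2 fold change 1.59, SE 0.055, adjusted p 8.81e-24). Another gene record of the same name overlaps 10.9% of the exonic bases of Ddit3.

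The 4 members listed here as targets of the integrated stress response all rose in KO cells, with a median log2 fold change of 1.26. Over all genes 33.7% were called higher. The list does not hold every possible target: Herpud1, grouped with ERAD, also held a CARE match and was lower (-0.35). Trib3 (chr2:152337422-152344032), a pseudokinase that restrains ATF4 and AKT signalling, had 108, 108 and 111 CPM in KO libraries, against 29.8, 25.7 and 26.7 CPM in WT libraries. The 3.97-fold rise was the largest among the members (log2 fold change 1.99, SE 0.058, adjusted p 4.38e-26). Chac1 (chr2:119351229-119354381), an enzyme that degrades glutathione, had 23.4, 21.2 and 24.6 CPM in KO libraries, against 9.03, 8.06 and 6.57 CPM in WT libraries, and rose 2.94-fold from a low level (log2 fold change 1.55, SE 0.10, adjusted p 2.06e-15). Asns (chr6:7675169-7693254), asparagine synthetase, had 161, 163 and 172 CPM in KO libraries, against 83.7, 83.1 and 86.2 CPM in WT libraries, a 1.96-fold rise (log2 fold change 0.97, SE 0.045, adjusted p 7.65e-20). Ppp1r15a, which encodes GADD34, the phosphatase subunit that reverses eIF2 phosphorylation, had 92.5, 93.9 and 94.2 CPM in KO libraries, against 63, 58 and 56.1 CPM in WT libraries (log2 fold change 0.66, SE 0.052, adjusted p 1.73e-13). The genotypes overlapped in none of these 4 genes, beside 69.4% of all genes without overlap. All 4 were also called higher under library size alone. That scaling moved the median of all genes up from 0.021 to 0.19, so it could not have undone a rise.

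**Figure D2:**
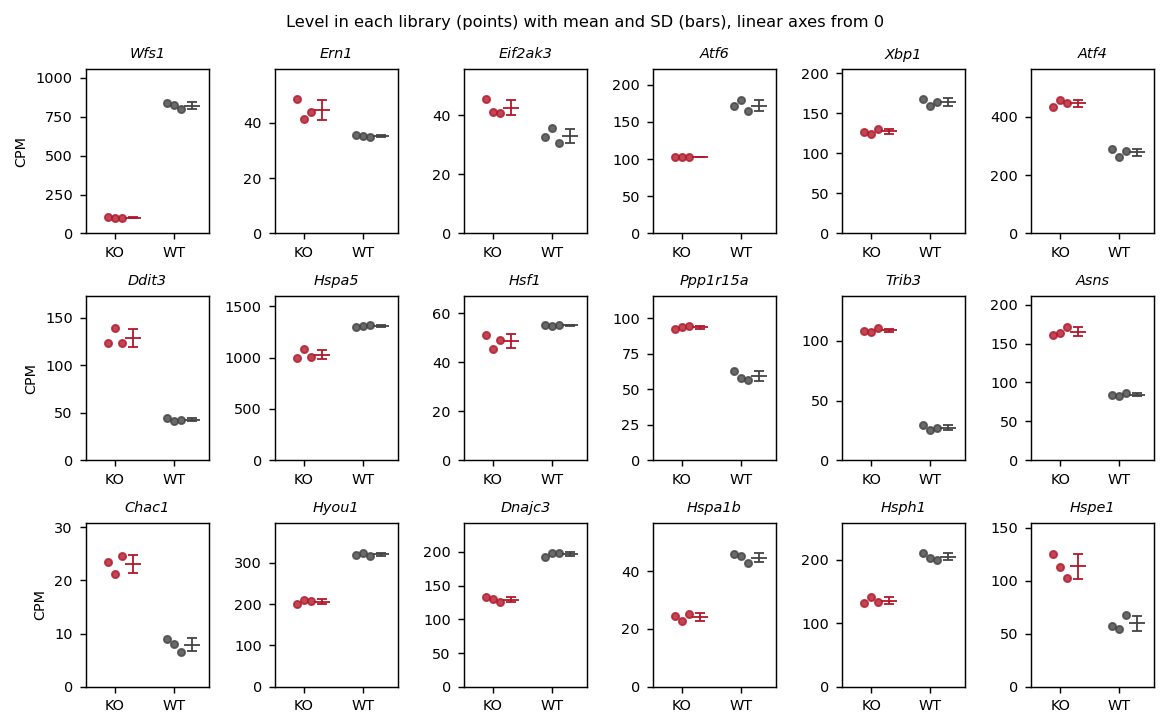
Level in CPM of each library (points) with the mean and SD of each genotype (bars) for the 18 members whose values are given library by library, KO left and WT right, on linear axes from 0. Wfs1 is the most unequal, at 102 CPM on average in KO and 821 CPM in WT, and the points of KO and WT do not overlap in any panel.

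Among 33 further genes of the integrated stress response, 28 rose in KO, 4 fell and 1 was not called, with a median log2 fold change of 0.71 (range -1.18 to 1.88) beside 0.021 over all genes. Over all genes 33.7% rose and 33.0% fell. Under library size alone, which moved the median of all genes up to 0.19, 29 of the 33 rose and 1 fell. Atf3, a stress-induced transcription factor, had 94.3, 96.1 and 93.9 CPM in KO libraries, against 26.9, 23.9 and 26.2 CPM in WT libraries (log2 fold change 1.88, SE 0.058, adjusted p 2.99e-25). Pck2, the mitochondrial phosphoenolpyruvate carboxykinase, had 141, 144 and 151 CPM in KO libraries, against 58.4, 53.8 and 60.7 CPM in WT libraries (log2 fold change 1.33, SE 0.051, adjusted p 1.73e-22). By function, all 5 enzymes of serine, glycine and one-carbon metabolism rose (log2 fold change 0.53 to 1.10), among them Phgdh, the entry enzyme of serine synthesis (224 ± 9.79 CPM in KO and 105 ± 3.62 CPM in WT). All 5 amino acid transporters rose too (0.29 to 1.12), with the glutamine carrier Slc1a5 at 136 ± 3.24 CPM in KO and 62.5 ± 1.98 CPM in WT. Of 7 tRNA synthetases, 6 rose, led by Sars (0.86) and Aars (0.74; 15.1% of its exonic bases are shared), and Mars1 was not called (-0.021, SE 0.052). The exceptions that fell were the hormone Fgf21, with 9.65, 7.09 and 8.75 CPM in KO libraries, against 20.3, 16.4 and 20.3 CPM in WT libraries (log2 fold change -1.18, SE 0.11, adjusted p 8.37e-11), and by smaller amounts Gadd45a (-0.22), Gpt2 (-0.18) and Stc2 (-0.16). Gpt2, Stc2 and the functional grouping within this list were picked after the values were seen.

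ER chaperones were lower in KO cells, by less than the stress targets rose. Of 18 members that fold or clear ER proteins, 14 fell, 2 rose and 2 were not called, with a median log2 fold change of -0.30. Over all genes 33.0% fell and 33.7% rose. Under library size alone 9 of these members fell and 3 rose. Hspa5 (chr2:34771970-34777547), the gene of the BiP chaperone, had 999, 1083 and 1005 CPM in KO libraries, against 1298, 1308 and 1318 CPM in WT libraries, a 1.27-fold lower level (log2 fold change -0.35, SE 0.041, adjusted p 3.38e-09). Hyou1, an ER relative of Hsp70 that acts as a nucleotide exchange factor for BiP, had 200.3, 211 and 207 CPM in KO libraries, against 320.2, 325 and 316 CPM in WT libraries (log2 fold change -0.64, SE 0.041, adjusted p 9.47e-16). Hsp90b1, which encodes GRP94, averaged 678 ± 39.9 CPM in KO and 964 ± 33.6 CPM in WT (-0.51, SE 0.044; 15.7% of its exonic bases are shared with an antisense gene). The lectin chaperone Canx (-0.29), the BiP cofactor Sdf2l1 (-0.35) and the ER protein Creld2 (-0.30) also fell. The secreted ER protein Manf was not called (log2 fold change -0.078, SE 0.051, adjusted p 0.174) and its genotypes overlapped. It was called lower without WT replicate 2 (-0.14, adjusted p 0.0196) and with offsets for GC content and length (-0.12, adjusted p 0.0297).

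The J-domain partners of BiP fell together. Dnajc3, which encodes the PERK inhibitor p58IPK, had 133, 129 and 125 CPM in KO libraries, against 193, 198 and 198 CPM in WT libraries (log2 fold change -0.60, SE 0.043, adjusted p 1.41e-14). Dnajb11 averaged 147 ± 4.97 CPM in KO and 218 ± 3.33 CPM in WT (log2 fold change -0.57), and Dnajb9, which also represses IRE1, averaged 39.5 ± 1.45 CPM in KO and 48.6 ± 0.58 CPM in WT (-0.30). None of their KO libraries reached a WT library. The disulfide isomerases differed by little: P4hb (-0.17), Pdia6 (-0.19) and Pdia3 (-0.13) were called lower, and Pdia4 was not called (-0.036, SE 0.041). Under library size alone none of the isomerases was called lower and the sign turned for Pdia3 (0.044) and Pdia4, which was called higher (0.14, adjusted p 0.00409). With offsets for GC content and length, Pdia4 was called lower (-0.10, adjusted p 0.0197). Per kilobase of exon, P4hb was the most abundant ER member in both genotypes, at 408 CPM in KO and 459.8 CPM in WT, followed by Pdia3 at 305 CPM in KO and 333 CPM in WT.

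The machinery of ER-associated degradation (ERAD), which returns misfolded proteins to the cytosol for destruction, was divided. The ubiquitin ligase Syvn1 averaged 66.3 ± 1.63 CPM in KO and 97.7 ± 0.593 CPM in WT (log2 fold change -0.56, SE 0.049, adjusted p 2.47e-12), and its partner Herpud1 averaged 121 ± 5.16 CPM in KO and 154 ± 3.53 CPM in WT (log2 fold change -0.35, SE 0.045, adjusted p 2.02e-08). Both were lower in every KO library. Sel1l, the adaptor of the same ligase, was slightly higher (238 ± 8.36 CPM in KO and 217 ± 1.94 CPM in WT; log2 fold change 0.13, SE 0.042, adjusted p 0.00693), and the mannosidase-like Edem1 as well (116 ± 5.58 CPM in KO and 95.8 ± 1.82 CPM in WT; log2 fold change 0.27, SE 0.047, adjusted p 5.69e-06). The call of Sel1l was lost without WT replicate 3 (0.11, adjusted p 0.0601).

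Against 33.0% lower and 33.7% higher over all genes, the other ER lists differed among themselves. Of 29 other folding and quality control genes, 11 fell and 10 rose (median -0.026), with the collagen hydroxylase subunit P4ha1 (-0.55) and the ER Hsp70 relative Hspa13 (-0.35) the largest falls and Cnpy2 (0.77) and Cnpy3 (0.55), a chaperone of Toll-like receptors, the largest rises. Of 31 translocation and ERAD genes, 14 fell and 6 rose (median -0.11), whereas under library size alone 9 fell and 13 rose. Edem3, an ERAD mannosidase, had 95.8, 84.3 and 85.3 CPM in KO libraries, against 189.6, 198 and 191 CPM in WT libraries (log2 fold change -1.12, SE 0.048, adjusted p 5.65e-21). It was followed by the translocon partner Sec62 (-0.64), and the small translocon subunits Sec61g (0.49) and Sec61b (0.39) rose. Among 19 other sensors and regulators, 5 fell and 6 rose. The eIF2 kinases differed: Eif2ak2, the double-stranded RNA kinase PKR, had 53.8, 57.8 and 51.1 CPM in KO libraries, against 94.2, 95.3 and 95 CPM in WT libraries (log2 fold change -0.80, SE 0.053, adjusted p 1.26e-15), the haem-regulated kinase Eif2ak1 was also lower (-0.40), and the amino acid sensor Eif2ak4 (GCN2) was higher (0.37, adjusted p 9.61e-06; named after its value was seen). The protease Mbtps1, which cuts ATF6, rose (0.39), as did the apoptosis gene Bbc3 (0.52).

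Cytosolic heat shock genes were mostly lower in KO cells. Of 10 members, 8 fell, 1 rose and 1 was not called (median -0.24), beside 33.0% lower and 33.7% higher over all genes. Under library size alone 3 of these members fell and 1 rose. Hsf1, the factor that drives them, had 51.1, 45.5 and 49.2 CPM in KO libraries, against 55.4, 54.9 and 55.1 CPM in WT libraries, a small difference (log2 fold change -0.18, SE 0.058, adjusted p 0.0057). The inducible Hsp70 gene Hspa1b (chr17:34956436-34959238) had 24.6, 22.7 and 25.1 CPM in KO libraries, against 45.8, 45.1 and 42.8 CPM in WT libraries, a 1.85-fold lower level and the largest fall of these genes (log2 fold change -0.89, SE 0.065, adjusted p 3.06e-14). Its near-identical neighbour Hspa1a had 5.89, 5.61 and 5.69 CPM in KO libraries, against 6.81, 6.9 and 6.75 CPM in WT libraries and was not called (log2 fold change -0.25, SE 0.13, adjusted p 0.0812), although its genotypes did not overlap. Reads that fit both copies cannot be assigned to either, so the split between Hspa1a and Hspa1b is uncertain. Hsph1, an Hsp110 that recharges Hsp70, had 132, 141 and 133 CPM in KO libraries, against 211, 203 and 199.8 CPM in WT libraries (log2 fold change -0.59, SE 0.044, adjusted p 3.49e-14).

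The abundant constitutive chaperones differed by little. Hspa8 averaged 1946 ± 101 CPM in KO and 2185 ± 19.5 CPM in WT (-0.17) and Hsp90ab1 1940.3 ± 60.4 CPM in KO and 2259.6 ± 29.7 CPM in WT (-0.22); the stress-inducible Hsp90aa1 averaged 475 ± 58.5 CPM in KO and 614 ± 11.3 CPM in WT (-0.37, SE 0.080, adjusted p 0.00378), with KO replicates between 422 and 538 CPM. These families have processed copies elsewhere in the genome that can share reads. The Hsp70 partner Dnaja1 (-0.29) and the myofibril-linked co-chaperone Bag3 (-0.19) fell as well. Dnajb1, the J-domain partner of the inducible Hsp70, was the member that rose (54.7 ± 3.84 CPM in KO and 45.3 ± 1.5 CPM in WT; log2 fold change 0.27, SE 0.060, adjusted p 0.000198). Under library size alone Hspa8 stood at 0.0038 and Hsf1, Hsp90aa1, Hsp90ab1 and Bag3 were not called, while Hspa1b (-0.71), Hsph1 (-0.42) and Dnaja1 (-0.12) were still lower.

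The mitochondrial chaperonin genes Hspd1 (Hsp60) and Hspe1 (Hsp10), which share the promoter stretch with the HSE printed with the motif matches, did not change alike. Hspe1 (chr1:55088132-55091307) had 125, 113 and 102 CPM in KO libraries, against 57.7, 54.3 and 67.6 CPM in WT libraries, a 1.89-fold rise (log2 fold change 0.92, SE 0.10, adjusted p 9.81e-05). Hspd1 (chr1:55077835-55088243) had 369.6, 380.1 and 334 CPM in KO libraries, against 343, 335 and 341 CPM in WT libraries, was not called (log2 fold change 0.088, SE 0.044, adjusted p 0.0801) and overlapped between genotypes. It was called higher without KO replicate 3 (0.14) and under library size alone (0.26). The ratio of Hspe1 to Hspd1 in CPM was 0.339, 0.297 and 0.306 in KO libraries and 0.168, 0.162 and 0.198 in WT libraries (exact permutation test, 2-sided p = 0.1, the smallest that this design allows). The genes share 7.6% of the exonic bases of Hspe1, and both have processed copies.

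Many co-chaperones and small heat shock proteins outside the member list were also lower. Of 35 other cytosolic heat shock and co-chaperone genes, 21 fell and 6 rose (median -0.37), whereas under library size alone 18 fell and 10 rose. With TMM scaling, 33.0% of all genes fell and 33.7% rose. Unc45b, the myosin chaperone of striated muscle, had 42.9, 48.5 and 47.3 CPM in KO libraries, against 198, 199.8 and 202 CPM in WT libraries (log2 fold change -2.11, SE 0.050, adjusted p 8.91e-29). Hspa4l, an Hsp110, had 44.6, 45.1 and 42.7 CPM in KO libraries, against 120.2, 133 and 124 CPM in WT libraries (log2 fold change -1.51, SE 0.053, adjusted p 1.06e-23). The largest rises were small, in Hspa12b (0.38) and Hspa14 (0.33).

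Of 10 genes in the small heat shock protein list, 8 were tested, 7 fell and 1 rose (median -0.97), with the same counts under library size alone. The shares over all genes were 33.0% lower and 33.7% higher. Several small heat shock proteins are muscle proteins that bind actin or titin filaments. Hspb7 had 36.6, 38.5 and 42.2 CPM in KO libraries, against 164, 155 and 167 CPM in WT libraries (log2 fold change -2.06, SE 0.054, adjusted p 1.77e-27), and Hspb8, the partner of Bag3, had 183, 182 and 179 CPM in KO libraries, against 479.5, 464 and 486 CPM in WT libraries (log2 fold change -1.39, SE 0.042, adjusted p 1.02e-25). Lower levels were also found for Hspb2 (-1.24), Hspb3 (-1.03), Hspb1 (-0.90), Cryab (-0.62) and Hspb6 (-0.39). Hspb2 and Cryab are neighbours that overlap, with 30.2% and 17% of their exonic bases shared. The rise was that of Hspb11, a protein of cilia transport, at 9.42 ± 0.402 CPM in KO and 5.81 ± 0.914 CPM in WT (0.68). The summed level of the myogenic markers was also lower in KO and its part in these falls was not tested.

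**Figure D3:**
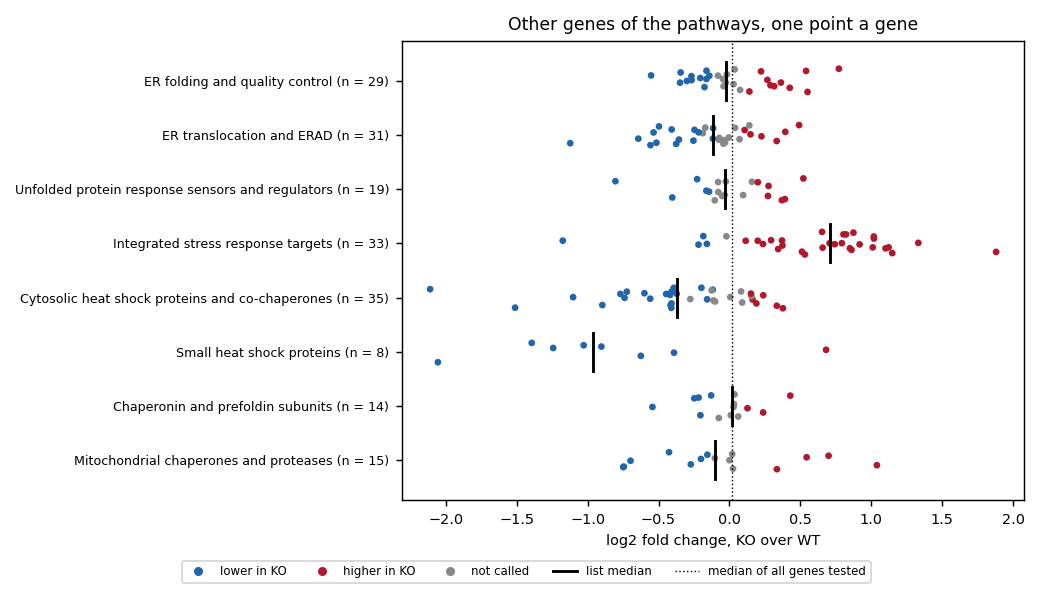
Log2 fold change of KO over WT for 184 other genes of these pathways, a point for each gene, coloured by call, with list medians as black bars and the median of all genes as a dotted line. The integrated stress response list lies to the right with a median of 0.71, and the small heat shock protein list lies farthest to the left at -0.97.

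**Figure D4:**
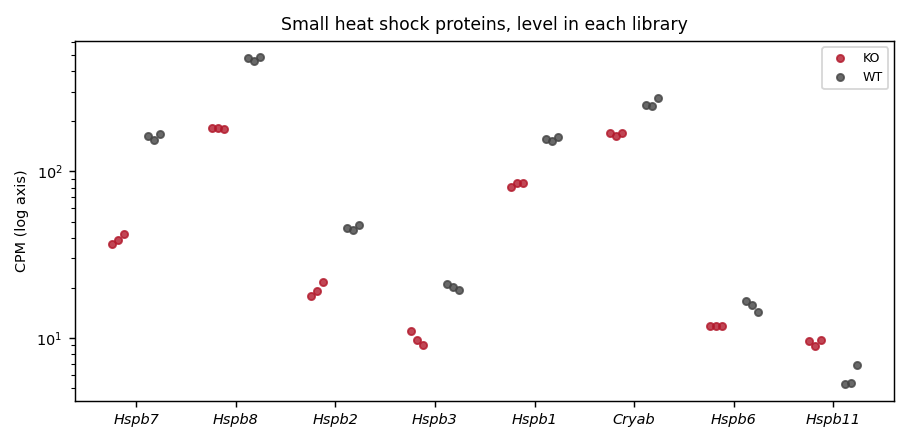
Level of 8 small heat shock protein genes in each library, in CPM on a log axis, KO left and WT right for each gene. KO libraries lie below WT libraries in every gene but Hspb11, where they lie above.

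By promoter element, all 9 members with ERSE or ERSE-II in the window were called lower (median log2 fold change -0.35), namely Hspa5, Hsp90b1, Canx, Creld2, Dnajc3, Pdia6, Syvn1, Dnajb11 and Herpud1. Creld2 (-0.13) and Pdia6 (-0.017) lost their calls under library size alone. Of the 4 with CARE, Asns, Chac1 and Trib3 rose and Herpud1, which also holds ERSE-II, fell. The 3 with HSE went separate ways: Hsph1 fell, Hspe1 rose and Hspd1 was not called. The other tested genes with ERSE or ERSE-II did not share the members' direction. Of 20 further genes with ERSE or ERSE-II, 3 fell and 9 rose (median 0.19). The ER chaperone gene Calr, named after its value was seen, was among those that fell (1018 ± 6.56 CPM in KO and 1139 ± 42.4 CPM in WT; -0.16). Of 304 further genes with CARE, 110 fell and 110 rose (median -0.0062), and of 56 with HSE, 23 fell and 20 rose. UPRE, which no member's window held, was in the windows of 120 tested genes, of which 56 (46.7%) fell and 34 (28.3%) rose (median -0.12). Over all 11110 tested genes with a window, 34.4% fell and 34.4% rose.

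**Figure D5:**
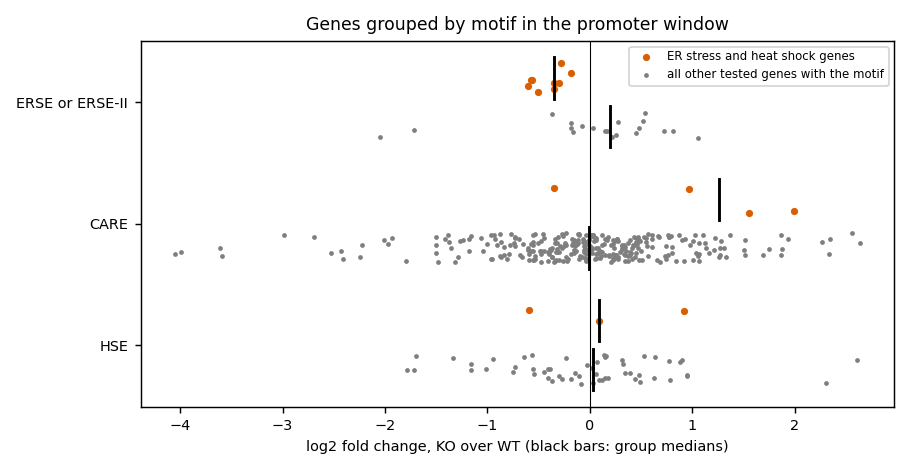
Log2 fold change of KO over WT for tested genes with each motif in the promoter window, members in orange and all other genes in grey, with group medians as black bars. The 9 members with ERSE or ERSE-II all lie left of 0, whereas the 20 other genes with these motifs lie on both sides.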

How the data were processed

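The submitters' processing notes name featureCounts 2.0.1, HISAT2 2.2.1 and the genome build mm10; annotation release and strand setting were not given in the sources used here. Raw counts, whole numbers for each Ensembl gene, were deposited by the authors as a matrix of 21666 genes and again as a table of 55359 genes for each library. Symbols, mm10 coordinates, exonic lengths and shared exonic bases (bedtools 2.31.1) came from GENCODE M21, to which 21632 identifiers matched; 3 listed symbols matched through RefSeq synonyms. In edgeR 4.0.16 (R 4.3.3), genes passed filterByExpr with a minimum count of 10 and a minimum total of 15, were scaled by TMM and tested over all 15518 genes with the quasi-likelihood F-test, KO against WT, with Benjamini-Hochberg adjustment. SE is the size of the log2 fold change over the root of F. CPM scales counts to the TMM-adjusted library size; levels per kilobase divide it by exonic length. The test was tried on simulated data with known changes.

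Members and lists were chosen with earlier results of these data known. The rule named all members, gave library values for Wfs1, sensors, factors, Hspa5, Hsf1 and called changes over 1.5-fold, and named the extreme called genes of the 8 other lists. Same-numbered libraries did not deviate together (correlations -0.025 to -0.00091). Replicate pairs differed by more than sampling noise, with a mean chi-square of 3.18 to 5.11 per gene. DESeq2 1.42.0 and limma 3.58.1 were among 16 alternatives. No label pairs lncMREF with an identifier, so its own level was not analysed here.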

Additional observations from a re-analysis of the deposited data

How the results depend on the processing

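Of the 41 members, 27 kept their direction and their side of the threshold under all 14 alternatives that used the matrix and a null of no change. With library size only, 15 members were lower in place of 25, 10 calls were lost, and 46 genes of the other lists were lower in place of 74. Pdia3 (0.044), Pdia4 (0.14), Hspa8 (0.0038) and Manf (0.092, not called) turned positive. Of all calls, 66.1% were then higher, against 50.5% with TMM. Tested against a change of 1.5-fold, 3 members were lower (Wfs1, Atf6 and Hspa1b) and 6 higher, 17 genes of the other lists were lower and 20 higher, 2 genes with ERSE or ERSE-II were lower and 1 higher, and 3394 of all genes were called. With the per-library tables, 5 members were lower and 7 higher, 22 genes of the other lists were lower and 30 higher, 1 genes with ERSE or ERSE-II were lower and 7 higher, and 5436 of 9871 genes were called. There, 12 of 18 members with a value were opposite in sign: Ern1 (-2.60), Atf6 (0.25), Ppp1r15a (-3.06), Chac1 (-0.0089), Hyou1 (0.49), Canx (0.79), Creld2 (0.37), P4hb (0.0092), Herpud1 (0.13), Edem1 (-0.20), Hsf1 (0.39) and Hsp90aa1 (0.47). So were Edem3 (1.30), Atf3 (-0.64), Hspa12b (-0.51), Hspb2 (0.47), Hspb6 (2.18), Hspb7 (0.18), Hspb11 (-0.39) and Cryab (0.17). None of these 12 members was among those whose counts matched the matrix. The match of counts was not checked for genes of the other lists, and the cause was not tested.

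With GC content and length offsets, 27 members were lower and 12 higher, the added calls being Manf and Pdia4. Leaving out a library gave 25 to 26 members lower, 11 to 13 higher, 67 to 75 genes of the other lists lower and 60 to 63 higher, and 9766 to 10151 genes in all, against 25, 12, 74, 64 and 10353 with every library. With the replicate number as a block, 25 members were lower and 12 higher, and 10209 genes in all were called. No same-numbered pair correlated above -0.00091. These few correlations, taken around group means, cannot show whether such libraries share more than a number. The count by ERSE was added after the data were seen. Genotype cannot be told apart from anything else that differed between the 3 KO and the 3 WT libraries. Groups of 3 cannot give an exact permutation p under 0.1, and Hspa1a, at a mean of 6.28 CPM, is the member most limited by depth.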

Other observations

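The chaperonin that folds actin and tubulin, and prefoldin, which delivers them to it, had no common direction. Of 14 chaperonin and prefoldin subunits, 5 were lower in KO, 3 higher and 6 not called, with a median log2 fold change of 0.019. Over all genes 33.0% were lower and 33.7% higher. Under library size alone 1 of the subunits was lower and 8 higher. The prefoldin subunit Vbp1 had 36.6, 34.7 and 33.1 CPM in KO libraries, against 48, 54.8 and 49.7 CPM in WT libraries (log2 fold change -0.54, SE 0.063, adjusted p 2.53e-09), and Pfdn5, another prefoldin subunit, had 80.9, 97.9 and 88.6 CPM in KO libraries, against 66.9, 66.3 and 65.6 CPM in WT libraries (log2 fold change 0.43, SE 0.057, adjusted p 6.67e-08; 11.8% of its exonic bases are shared). The chaperonin subunit Cct8 was lower (-0.25) and Pfdn1 higher (0.24).

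Among 15 other mitochondrial chaperones and proteases, 7 were lower and 4 higher (median -0.10), whereas under library size alone 4 were lower and 7 higher. With TMM scaling, 33.0% of all genes were lower and 33.7% higher. The matrix protease Lonp1 had 246, 272 and 250.3 CPM in KO libraries, against 157, 162 and 155 CPM in WT libraries (log2 fold change 0.70, SE 0.044, adjusted p 5.17e-16), whereas the inner membrane protease Yme1l1 had 117, 122 and 101 CPM in KO libraries, against 190.3, 197 and 186 CPM in WT libraries (log2 fold change -0.75, SE 0.053, adjusted p 5.39e-12). Clpx, the unfoldase of the other matrix protease, was lower (-0.74), and the iron-sulfur cluster co-chaperone Hscb was higher from a low level (11.1 ± 0.547 CPM in KO and 5.37 ± 0.421 CPM in WT; 1.04). Mitochondrial Hsp70, Hspa9, averaged 839 ± 49.9 CPM in KO and 825 ± 15.8 CPM in WT and was not called (0.025, SE 0.043; named after its value was seen). The share of counts from mitochondrial DNA genes was lower in the same KO libraries, and its part in these values was not tested.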
